A study of Caenorhabditis elegans with 8 samples.

Results

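The CYP-35 genes of *Caenorhabditis elegans* form a subfamily of cytochrome P450 genes with 10 members among the 17521 genes of the table, *cyp-35A1* to *cyp-35A5*, *cyp-35B1* to *cyp-35B3*, *cyp-35C1* and *cyp-35D1*. The members were taken by gene name, and the subfamily was chosen because its log2 fold changes between atracurium and water vehicle were already known. Differences between the groups are therefore given for these genes as a description, without p values, and counts of members past a threshold are set beside those of all genes only. Whole worms of the N2 strain, the wild-type laboratory strain, were moved at larval stage 4 (L4) to plates with 50 μM atracurium besylate, a neuromuscular blocker, or with the water vehicle, and were collected 24 h later as day 1 adults. Plates of both groups also held 5-fluorouracil, an inhibitor of DNA synthesis used to prevent progeny. Each group had 4 samples of about 1000 worms, and the question addressed was which transcripts differ after exposure to atracurium.

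Cytochrome P450 enzymes are haem proteins, most of them anchored in the endoplasmic reticulum, that insert an oxygen atom from molecular oxygen into lipophilic molecules such as drugs, fatty acids and sterols. Electrons reach them from NADPH through a reductase, encoded in worms by *emb-8*, and in some reactions through cytochrome b5. In worms the CYP-35 genes are known for their expression in the intestine, for induction of several *cyp-35A* genes and *cyp-35C1* by foreign compounds, and for a link of the *cyp-35A* genes to fat storage.

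The 8 samples held between 27922986 and 60015200 reads on the genes of the table, with the deepest library in water vehicle replicate 2. The deposited values are log2 CPM, the log2 of read counts scaled to a normalized (effective) library size, with a prior count. A gene without reads thus has the value −4.15 in every sample. The reads behind each value were recovered as whole numbers. Absence of reads in 1 sample allows up to 3 reads, or 0.0487 to 0.107 CPM, and this limit covers counting error only. Atracurium replicates 2 and 4 stood apart from the other samples on the first and second principal components of all genes, at 77.5 against −23.6 to 6.8 and at −64.8 against −3.4 or more. Log2 fold changes of members and counts past a threshold that moved without these samples are also given without them. Log2 fold changes of other genes and list sums are given with all samples. In RNA from whole worms, fewer cells of a type and less RNA per cell cannot be told apart.

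All 10 genes lie on chromosome V (WBcel235) in 6 loci. *cyp-35A5*, *cyp-35B1*, *cyp-35B2* and *cyp-35B3* follow each other on the plus strand within 10.72 kb, from position 3936326 to 3947044, with 434, 922 and 829 bases between neighbours. *cyp-35A3* (4022609 to 4024482) and *cyp-35A4* (4031619 to 4033446) lie nearby. *cyp-35A1* and *cyp-35A2* are neighbours on the minus strand, from 7359929 to 7364182, with 545 bases between them. *cyp-35C1* (13896663 to 13898487) and *cyp-35D1* (16069238 to 16071318) stand alone. The *cyp-35A* genes and *cyp-35C1* have 7 annotated exons, the *cyp-35B* genes 5 and *cyp-35D1* 6. Coding lengths are nearly equal, at 1482 bases in the *cyp-35A* genes, 1485 in *cyp-35C1* and 1497 in the others.

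In water vehicle worms the subfamily was carried by *cyp-35A2* and *cyp-35C1*. Levels that can be compared between genes were computed as CPM per kb of exon (RPKM). On this scale *cyp-35A2* was at 21.7 ± 6.12 (SD, n = 4) and *cyp-35C1* at 17.9 ± 3.26, and their ranges overlapped. *cyp-35A5* followed at 3.004 ± 0.126 RPKM and *cyp-35D1*, which metabolizes the anthelmintic thiabendazole in worms, at 1.59 ± 0.381. The samples of *cyp-35A5* overlapped with neither of its neighbours in this order. *cyp-35A3*, with 0.867 ± 0.44, *cyp-35A4*, with 0.535 ± 0.155, and *cyp-35B1*, with 0.384 ± 0.0605, each overlapped with the gene above. *cyp-35A1*, *cyp-35B2* and *cyp-35B3* had at most 4 reads in any water vehicle sample. Among the 74 cytochrome P450 genes measured, *cyp-35A2* ranked 6 and *cyp-35C1* 8 by mean RPKM, while *cyp-35A1*, *cyp-35B2* and *cyp-35B3* held ranks 72 to 74.

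In atracurium worms the order was different. *cyp-35B3*, at 91.4 ± 5.37 RPKM, and *cyp-35B2*, at 89.7 ± 1.17, headed all 74 cytochrome P450 genes, beside *cyp-31A2* at 89.6 ± 3.59. The samples of these genes overlapped, so their order is not resolved. The annotated exons of *cyp-35B3* hold only the coding sequence and the stop codon, whereas those of *cyp-35B2* are longer, and on the CPM scale, without length, *cyp-35B2* was at 145 ± 1.90 and *cyp-35B3* at 137 ± 8.05. *cyp-35A2* (19.4 ± 4.14 RPKM), *cyp-35C1* (15.4 ± 3.69) and *cyp-35B1* (10.8 ± 1.92) came next, with overlap between *cyp-35A2* and *cyp-35C1* and between *cyp-35C1* and *cyp-35B1*, and *cyp-35A5* stood at 4.88 ± 0.704 without overlap with *cyp-35B1*. The other members reached at most 1.32 RPKM in any sample. In the ranking of 17493 genes with an exonic length, *cyp-35B3* moved from rank 17492 to 1462, *cyp-35B2* from 17486 to 1505 and *cyp-35B1* from 14442 to 6773, while *cyp-35A2* moved from 5340 to 5548 and *cyp-35C1* from 5747 to 6044.

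**Figure D1:**
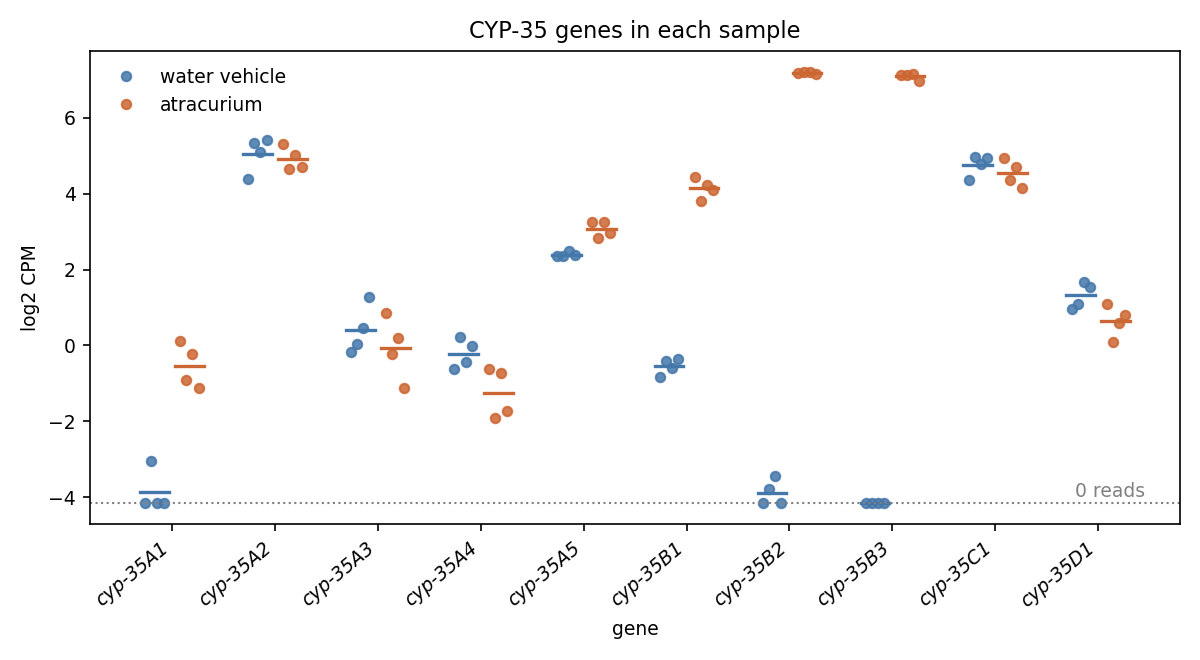
Deposited log2 CPM (y axis) of the 10 CYP-35 genes (x axis) in each of the 4 water vehicle and 4 atracurium samples. Points are samples and short lines are group means. The values of *cyp-35B1*, *cyp-35B2* and *cyp-35B3* lie far apart between the groups, *cyp-35A1* and *cyp-35A5* are apart by less, and the other 5 genes overlap.

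*cyp-35B2* and *cyp-35B3* went from almost no reads with water vehicle to between 4046 and 5096 in each atracurium sample. The water vehicle samples held 0, 1, 1 and 0 reads of *cyp-35B2*, and the atracurium samples 5096, 4939, 4577 and 4614. For *cyp-35B3*, 0 reads were counted in all 4 water vehicle samples, against 4881, 4746, 4449 and 4046 with atracurium. The groups lay far apart for both genes, and the 4 atracurium samples were close together, between 7.16 and 7.20 log2 CPM for *cyp-35B2* and between 6.97 and 7.16 for *cyp-35B3*. The ratio of summed reads, scaled to effective library size, was 11084 for *cyp-35B2* (95% exact binomial interval 3068 to 91528, counting error only). *cyp-35B3* was at least 1575-fold higher with atracurium, taking the floor of 3 reads in each water vehicle library. Only 2 genes of the table had no reads in any water vehicle sample. Of the 25 genes with at most 3 reads summed over the 4 water vehicle samples, 3 had at least 100 reads in every atracurium sample, namely *cyp-35B2*, *cyp-35B3* and *C01G12.5*. The filter of the authors, over 2 counts in 3 samples or more, had removed genes with few reads in both groups. Genes with so few water vehicle reads thus met it only with atracurium reads, and nothing is read from these counts.

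*cyp-35B1*, known in worms as a gene downstream of DAF-16, lies between *cyp-35A5* and *cyp-35B2*. It was expressed at a low level in water vehicle worms, with 17, 43, 17 and 21 reads. With atracurium 752, 470, 586 and 550 reads were counted. All 4 atracurium samples exceeded all 4 water vehicle samples, with means of 4.14 ± 0.26 and −0.55 ± 0.22 log2 CPM. The log2 fold change was 4.69 (SE 0.18), and the ratio of summed reads was 27.7 (95% exact binomial interval 22.7 to 34.3). Within the *cyp-35B* group, *cyp-35B1* supplied 94.4 to 100% of the reads in water vehicle samples, over only 98 reads in all, and 4.63 to 7.01% in atracurium samples. The ratio of *cyp-35B2* to *cyp-35B3* reads stayed between 1.03 and 1.14 in the 4 atracurium samples.

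*cyp-35A1* was detected in only 1 water vehicle sample, replicate 2, where 4 reads were counted. The atracurium samples held 36, 16, 25 and 13 reads. The groups did not overlap, although the highest atracurium value was only 0.12 log2 CPM. The ratio of summed reads was 25.9 (95% exact binomial interval 9.79 to 97.3), and without water vehicle replicate 2, the only such sample with reads, the gene was at least 6.78-fold higher. Its neighbour *cyp-35A2* held 706, 2493, 949 and 1232 reads in water vehicle samples and 1378, 851, 1018 and 844 in atracurium samples. On the log2 CPM scale the *cyp-35A2* groups overlapped, at 5.06 ± 0.47 and 4.93 ± 0.30, with a log2 fold change of −0.13 (SE 0.20).

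*cyp-35A5*, which opens the locus that holds the *cyp-35B* genes, was higher in each atracurium sample than in any water vehicle sample. Its log2 CPM was 2.35, 2.36, 2.48 and 2.38 with water vehicle and 3.24, 2.84, 3.26 and 2.96 with atracurium, from 149 to 328 reads per sample. The log2 fold change was 0.68 (SE 0.13). This gene thus had the narrowest spread among water vehicle samples of the members with reads in all of them (SD 0.06), and a far smaller difference than *cyp-35B1*, whose start lies 434 bases further on.

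The remaining members overlapped between the groups, and their log2 fold changes were negative. *cyp-35A4* had 20, 69, 19 and 27 reads with water vehicle and 21, 7, 17 and 8 with atracurium. Its log2 fold change was −1.03 (SE 0.37), with atracurium replicates 2 and 4 lowest, and it was −0.46 without these replicates. *cyp-35D1* had 0.96, 1.10, 1.68 and 1.54 log2 CPM with water vehicle and 1.10, 0.09, 0.59 and 0.81 with atracurium. The *cyp-35D1* difference was −0.68 (SE 0.25) on the log2 scale, with overlap at a single atracurium sample, replicate 1. *cyp-35A3*, from which a reporter for foreign compounds has been made in worms, was at 0.40 ± 0.64 and −0.08 ± 0.83 log2 CPM (log2 fold change −0.48, SE 0.42). *cyp-35C1* was at 4.76 ± 0.29 and 4.54 ± 0.34 log2 CPM (log2 fold change −0.22, SE 0.17). Without atracurium replicates 2 and 4 the log2 fold changes turned positive for *cyp-35A2* (0.11), *cyp-35A3* (0.12) and *cyp-35C1* (0.06).

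Summed over the 10 genes, the subfamily held 50.1, 81.8, 72.8 and 84.9 CPM in the water vehicle samples and 391, 357, 381 and 339 CPM in the atracurium samples. Nearly all of the difference lay in the *cyp-35B* genes, which went from 0.503 to 0.723 CPM with water vehicle to 285 to 309 CPM with atracurium. Without them the sums overlapped, at 71.7 ± 15.7 and 66.6 ± 14.5 CPM. The share of *cyp-35B* reads in the subfamily was 0.852 to 1.01% in water vehicle samples and 78.3 to 84.5% in atracurium samples, while the *cyp-35A* share was 54.6 to 59.9% and 9.48 to 13.3%. The summed *cyp-35A* genes themselves were at 41.8 ± 10.4 CPM with water vehicle and 41.4 ± 8.67 CPM with atracurium. The subfamily made up 6.85 to 10.98% of the reads on all 74 cytochrome P450 genes in water vehicle samples and 32.0 to 35.5% in atracurium samples.

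**Figure D2:**
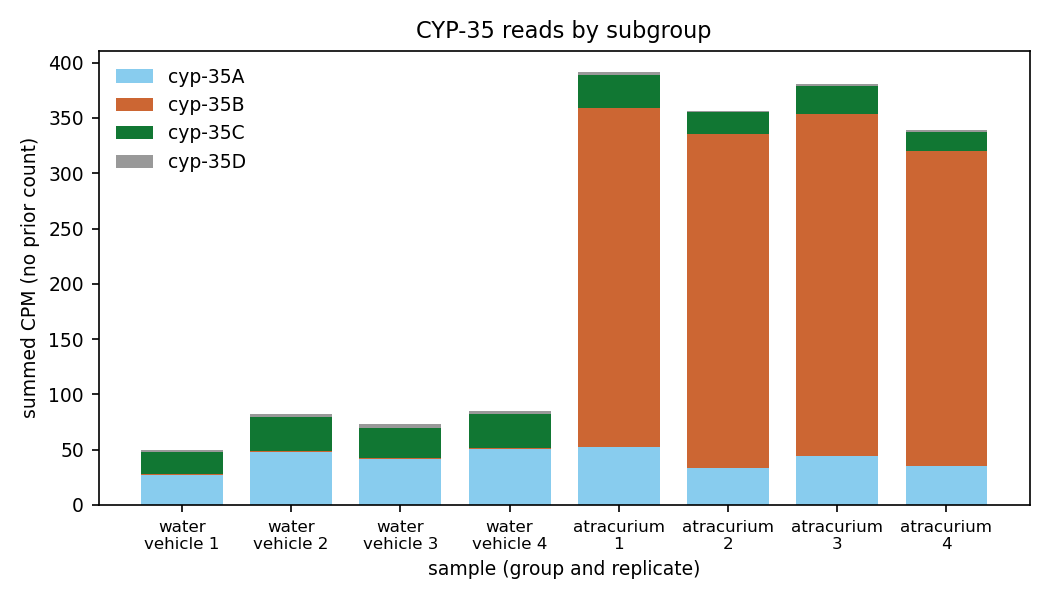
Summed CPM of the CYP-35 genes (y axis, starting at 0) in each of the 8 samples (x axis), with bar segments for the *cyp-35A*, *cyp-35B*, *cyp-35C* and *cyp-35D* genes. The *cyp-35B* segment is under 1 CPM in the water vehicle samples and 285 to 309 CPM in the atracurium samples, while the other segments sum to a like height in both groups.

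In the fit across all 17521 genes (limma-trend, two-sided, Benjamini-Hochberg adjustment), 4 of the 10 members passed an adjusted p of 0.05, all higher, namely *cyp-35A1*, *cyp-35B1*, *cyp-35B2* and *cyp-35B3*. Over all genes 0.143% passed in this direction and 0.0342% in the other. At an unadjusted p of 0.01, 5 members were higher, with *cyp-35A5* added, and none was lower, against 1.2% and 1.87% of all genes. Without atracurium replicate 1, *cyp-35A4* and *cyp-35D1* were lower at this threshold, which made 7 members. The groups did not overlap in 5 members, against 7.16% of all genes. Because this contrast was used to choose the subfamily, nothing is read from these counts. *cyp-35A1*, *cyp-35B2* and *cyp-35B3* also met the filter of the authors, over 2 counts in 3 samples or more, only with reads from atracurium samples. For these genes the filter favoured a difference in this direction, without setting its size. In all, 882 genes of the table had over 2 reads in fewer than 3 water vehicle samples. The median log2 fold change of the 10 genes was 0.28, with 5 positive and 5 negative values, against −0.01 over all genes. *cyp-35A1* did not pass with limma-voom on the recovered reads, nor without atracurium replicate 1, which left 3 members past the threshold in each case, and *cyp-35A5* passed without atracurium replicate 2, which made 5.

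Of the other 64 cytochrome P450 genes, 2 rose past an adjusted p of 0.05 and none fell, against 0.143% and 0.0342% of all genes. Both belong to the CYP-33 family. *cyp-33C6* had 0 to 15 reads in water vehicle samples and 151 to 189 in atracurium samples. Like *cyp-35A1*, it met the filter on counts only with reads from atracurium samples, which favoured a difference in this direction without setting its size. *cyp-33C5* had a log2 fold change of 1.63 (SE 0.21, limma-trend adjusted p = 0.00459). At an unadjusted p of 0.01, 4 of the 64 were higher and 3 lower, against 1.2% and 1.87% of all genes. The median log2 fold change of the 64 genes was 0.06, against −0.01 over all genes. The CYP-34 genes, some of which lie next to the *cyp-35B* locus, had log2 fold changes between −0.57 and 0.52 over 9 genes, and 0 passed the adjusted threshold.

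Genes around the CYP-35 loci were examined because they were chosen by position alone. Of the 21 genes that lie nearest on each side of the 6 loci, up to 2 on each side, 0 passed an adjusted p of 0.05 with limma-trend or limma-voom. An unadjusted p under 0.05 was found in 4 of the 21, against 11.5% of all genes. The groups did not overlap in 3 of the 21, against 7.16% of all genes. *cyp-34A4* lies 2.98 kb after *cyp-35B3*. It held 174 to 486 reads in water vehicle samples and 228 to 253 in atracurium samples, with a log2 fold change of −0.07 (SE 0.13). The gene beyond it, *cyp-34A5*, had a log2 fold change of 0.26 (SE 0.24). On the other side, *srx-67*, a gene of a chemoreceptor family, lies 17.79 kb before *cyp-35A5* and had at most 15 reads in any sample. *nhr-176*, a nuclear hormone receptor gene that controls *cyp-35D1* in worms exposed to thiabendazole, starts 6 bases after *cyp-35D1* on the same strand and had a log2 fold change of 0.06 (SE 0.15).

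At an unadjusted p of 0.01, 1 flanking gene was lower. *C49G7.7*, which lies 1.03 kb after *cyp-35A4*, had 3.59, 3.86, 3.01 and 2.81 log2 CPM with water vehicle and 2.32, 2.33, 2.34 and 2.19 with atracurium. All atracurium samples lay under all water vehicle samples. Its log2 fold change was −1.02 (SE 0.20, limma-trend adjusted p = 0.0877), and its adjusted p lay between 0.0164 and 0.332 over 16 alternatives, under 0.05 in 5 of them. The other flanking genes with an unadjusted p under 0.05 went in both directions. *K09D9.1*, between *cyp-35A3* and *cyp-35A4*, had a log2 fold change of −0.45 (SE 0.16, limma-trend adjusted p = 0.351). *lbp-8*, before *cyp-35C1*, was at −0.54 (SE 0.24, limma-trend adjusted p = 0.430). *nhr-149*, before *cyp-35A1*, was at 1.18 (SE 0.48, limma-trend adjusted p = 0.392), with 1 to 4 reads in water vehicle and 4 to 14 in atracurium samples.

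**Figure D3:**
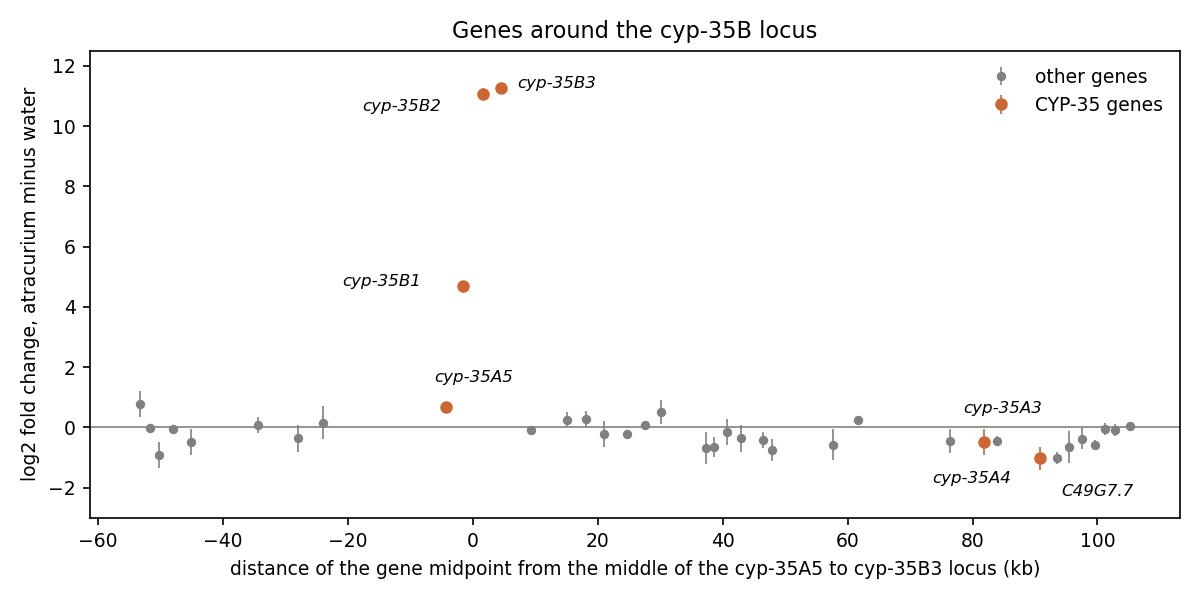
Log2 fold change (y axis, atracurium minus water vehicle, bars are standard errors) of the 38 genes of the table around the locus of *cyp-35A5* to *cyp-35B3*, by the distance of the gene midpoint from the middle of that locus in kb (x axis). *cyp-35B2* and *cyp-35B3* are at 11.07 and 11.25, *cyp-35B1* is at 4.69 and *cyp-35A5* at 0.68, while the other genes lie between −1.03 and 0.78. Fitted values of *cyp-35B2* and *cyp-35B3* depend on the prior count.

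The partner proteins of cytochrome P450 were measured through a list of 3 genes. None of the 3 passed an adjusted p of 0.05 with limma-trend or limma-voom, and 1 had an unadjusted p under 0.05 (11.5% of all genes). That gene, *emb-8*, the reductase, had a log2 fold change of 0.13 (SE 0.06, limma-trend adjusted p = 0.428). The cytochrome b5 genes *cytb-5.1* and *cytb-5.2* were at −0.26 (SE 0.16) and −0.18 (SE 0.11) on the log2 scale. Both were lowest in atracurium replicate 2, at 4.28 and 5.44 log2 CPM. The other atracurium samples were at 4.96 to 5.17 and at 5.81 to 6.0. *C. elegans* cannot make haem and takes it up from food, so 8 genes of haem supply were also listed. Of these 8 genes 0 passed the adjusted threshold with either tool and 2 had an unadjusted p under 0.05, against 11.5% of all genes. *hrg-4* and *hrg-1*, which import haem in the intestine, had log2 fold changes of −0.51 (SE 0.17) and −0.34 (SE 0.14), and *mrp-5*, which exports haem from the intestine, was at 0.04. The median of the list was −0.23.

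A list of 13 genes of factors linked in worms to the control of xenobiotic, fat or insulin-dependent genes held no gene past the adjusted threshold with either tool, and 2 with an unadjusted p under 0.05, a share near the 11.5% of all genes. All 13 log2 fold changes were positive but small, between 0.01 and 0.41, with a median of 0.10. Over all 17521 genes 8355 were positive and 9166 negative. *elt-2*, the main GATA factor of the intestine, was at 0.19 (SE 0.08, limma-trend adjusted p = 0.427), and *pqm-1*, a zinc finger factor of the intestine, at 0.25 (SE 0.10, limma-trend adjusted p = 0.368). *daf-16*, the FOXO factor of insulin signalling, was at 0.10 (SE 0.08) and *skn-1*, the worm counterpart of Nrf, at 0.09 (SE 0.06). *ahr-1*, the aryl hydrocarbon receptor, was at 0.41 (SE 0.30). Transcript levels do not report the activity or nuclear localization of these factors.

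**Figure D4:**
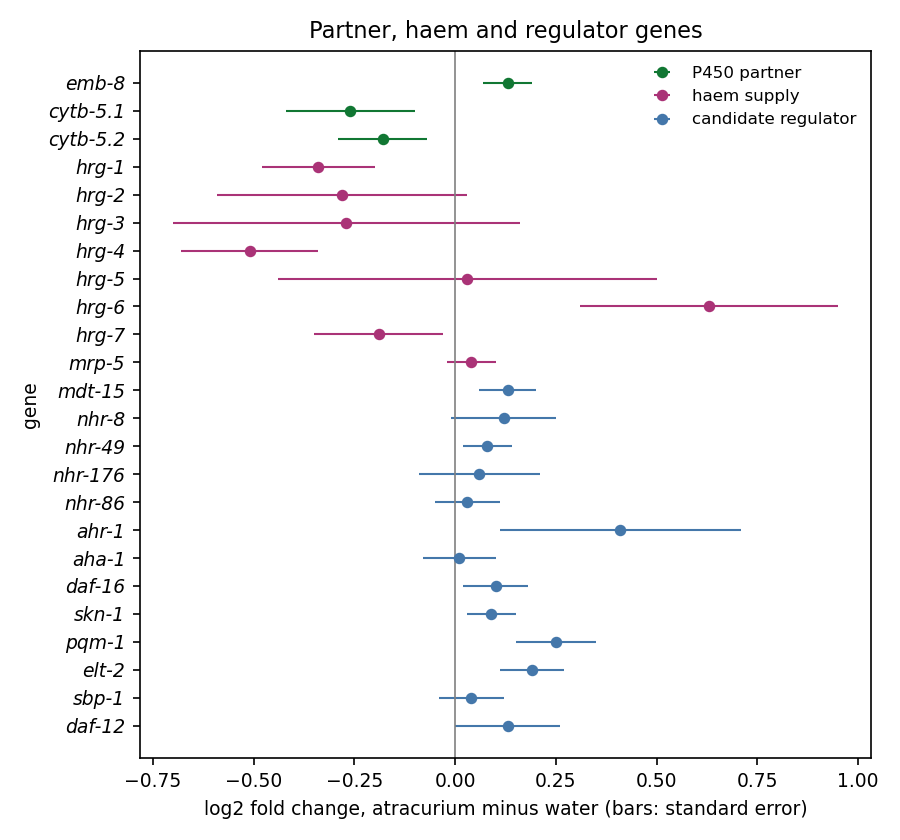
Log2 fold change (x axis, atracurium minus water vehicle, bars are standard errors) of the genes of P450 partners, haem supply and candidate regulators (y axis). The candidate regulators lie between 0.01 and 0.41, the haem supply genes between −0.51 and 0.63 and the P450 partners between −0.26 and 0.13.

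Markers of the tissues in the whole worm samples were compared as well, and their counts at an unadjusted p under 0.05 stand beside 11.5% of all genes. Their signs stand beside 8355 positive and 9166 negative log2 fold changes over all genes. Of 10 intestine markers 0 passed the adjusted threshold with limma-trend or limma-voom and 3 had an unadjusted p under 0.05, with 9 positive log2 fold changes, a median of 0.12 and a summed level of 1158 to 1427 CPM in water vehicle and 1383 to 1512 CPM in atracurium samples. Of 10 body wall muscle markers 0 passed with either tool, with 5 positive and 5 negative log2 fold changes and a median of 0.08. An unadjusted p under 0.05 was found in 6 of them. These were positive in *myo-3*, *unc-54*, *unc-15*, *unc-22* and *ttn-1* (0.17 to 0.33) and negative in *pat-10* (−0.15). Summed levels of the muscle markers were 4422 to 4896 CPM in water vehicle and 4562 to 5400 CPM in atracurium samples. Among the 9 sperm markers measured, 0 passed with either tool, 2 had an unadjusted p under 0.05 and 7 were negative. Their summed levels were 26.8 to 29.2 CPM in water vehicle and 21.2 to 26.5 CPM in atracurium samples, apart by a narrow margin. Taken singly, 1 of the 9 had groups without overlap, against 7.16% of all genes. No marker was without reads in all samples. The part of these differences in the CYP-35 values was not tested.

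Within groups, several members varied together. Of the 7 members with reads in every water vehicle sample, 7 were lowest in replicate 1, whereas 27.6% of the 16804 such genes of the table were. In the atracurium group, replicates 2 and 4 were both under replicates 1 and 3 in 7 of the 10 members, namely the 5 *cyp-35A* genes, *cyp-35B1* and *cyp-35C1*, against 17.8% of 16258 genes. *cyp-35B2* and *cyp-35B3* did not follow this order, and their samples spanned 0.04 and 0.19 log2 CPM, against 0.62 for *cyp-35B1*. After the samples were scaled to a common median, 6 of the 7 and 7 of the 10 members showed these orders, against 21.4% and 10.8% of the genes. These orders were noticed in the data and are a description.

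**Figure D5:**
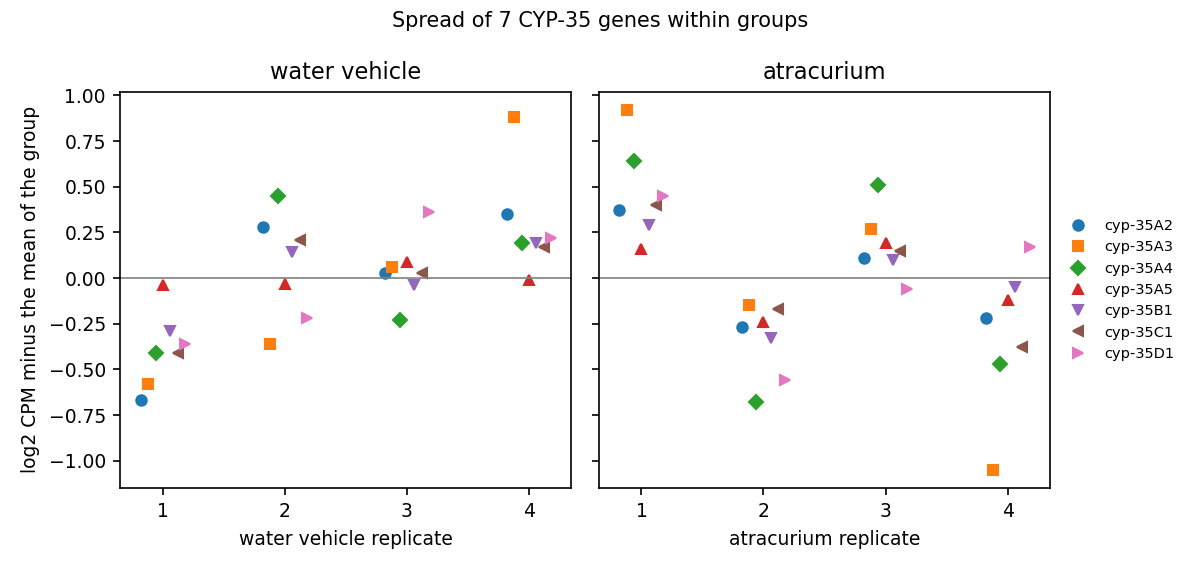
Log2 CPM of 7 CYP-35 genes minus the mean of the gene in its group (y axis), by replicate (x axis), for the water vehicle group (left) and the atracurium group (right). The 7 genes are lowest in water vehicle replicate 1, and all but *cyp-35D1* are lower in atracurium replicates 2 and 4 than in replicates 1 and 3.

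The genes most like the members in pattern were sought by Pearson correlation, over the 8 samples, of log2 CPM with the mean of the 4 members past the adjusted threshold. The closest was *pgp-13*, a P-glycoprotein gene of the ABC transporters, with r = 0.9983, which had 72 to 170 reads in water vehicle samples and 1870 to 2396 in atracurium samples. It was followed by the alcohol dehydrogenase gene *sodh-1* (r = 0.9967), *C01G12.5* (r = 0.9941), *C08D8.1* (r = 0.9938), *T10B5.8* (r = 0.992) and the glutathione S-transferase gene *gst-5* (r = 0.9899). *C01G12.5* had 0 to 2 reads with water vehicle and 219 to 306 with atracurium, whereas *gst-5* had 281 to 587 and 537 to 665. All 6 correlations rest on the difference between the same groups of samples, so they describe a shared step between groups and carry no p. *sodh-1*, *C08D8.1* and *T10B5.8* share chromosome V with the members, *C01G12.5* and *gst-5* lie on chromosome II, and *pgp-13* lies on the X chromosome.

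The members are close in sequence to each other, and reads that match several copies could have been left out by the counting, which was not tested. The authors counted with default settings of HTSeq, and the recovered values were whole reads. The methods of the study say that 4 samples were grown, whereas days or synchronized populations are not given in the sources used here, so SDs and standard errors measure the spread between these samples only.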

How the data were processed

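The authors trimmed reads with Trimmomatic 0.32, aligned them with HISAT2 2.1.0 to WBcel235, counted them by strand with HTSeq 0.11.0 using Ensembl release 91, and required over 2 counts in 3 samples or more. The values the authors deposited are log2 CPM of 17521 genes from edgeR 3.26.8, with a prior count averaging 2 reads. The paper names the trimmed mean of M-values for normalization and limma-voom for its own test. Effective library sizes recovered from the values differed from the reads on genes, at 61620816 against 60015200 in water vehicle replicate 2. CPM, ratios and RPKM use the effective sizes. Whole reads were recovered from the steps of these values (100% within 0.1 of a whole number), which gave depth, ratios and RPKM. Exonic lengths and positions come from Ensembl release 115 (17493 genes matched).

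Groups follow the treatment labels. The deposited log2 CPM were fitted with limma 3.58.1 in R 4.3.3 (limma-trend, two-sided, Benjamini-Hochberg over 17521 genes), in place of a count test. The script was tested on simulated data. Alternatives were limma-voom on recovered reads, no mean-variance trend, another prior count (0.5), a common median, a stricter filter (4 or more samples above 0 log2 CPM), removal of the trend with gene length (lowess, span 0.3), a replicate block, and omission of each sample in turn. Leaving out atracurium replicates 2 and 4 together was added after seeing the data. No filter was the deposited table itself.

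The members and all lists were chosen with earlier results of these data known. Named genes are the 10 members, single genes of the lists, and the 6 genes most correlated with the members past the threshold. Flanking genes were named where they passed a threshold or had an unadjusted p under 0.05. Neighbours of the *cyp-35B* and *cyp-35D1* loci were named for their position. The flanking genes to be named were settled after their values were seen. Of 10 sperm markers, *spe-38* was not analysed here. No sequence was used, so promoter and protein comparisons were not run. Intervals cover counting error only.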

Additional observations from a re-analysis of the deposited data

Results flagged for a closer look

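The value of *cyp-35A1* in water vehicle replicate 2 was far from the other samples of its group, at −3.05 log2 CPM against −4.15 in each of the other three. It stands for 4 reads in the deepest library against 0 reads elsewhere. A gap of this kind sets apart about 1 in 20 groups of continuous values by chance, but that rate does not hold here, since any single sample with reads stands apart from values tied at the floor.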

How the results depend on the processing

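The count of CYP-35 genes past an adjusted p of 0.05 was 4, and 3 to 5 under every alternative. It was 3 with limma-voom, with the stricter filter and without atracurium replicate 1. The stricter filter left 8 members, as it removed *cyp-35A1* and *cyp-35A4*. The count was 5, with *cyp-35A5* added, after common-median scaling, after removal of the length trend, and without atracurium replicate 2 alone or with 4. At an unadjusted p of 0.01 the count was 5, 7 without atracurium replicate 1 and 4 with the stricter filter. With the replicate number as a block the count at the adjusted threshold was 4, while the count over all genes went from 31 to 20. Same-numbered samples correlated at −0.057 to 0.036 in their deviations. These correlations gave no sign of pairing by number but cannot exclude it, and the sources used here do not state it. The count over all genes was 16 without the mean-variance trend, 17 to 78 with each replicate left out, and 134 without atracurium replicates 2 and 4. The 538 genes at an unadjusted p of 0.01 became 306 to 883 with each replicate left out and 977 without both. Among the other cytochrome P450 genes, 1 passed without the trend instead of 2. Among flanking genes 1, *C49G7.7*, passed instead of 0 after common-median scaling, after removal of the length trend and without atracurium replicates 2 and 4, and 0 to 1 with each replicate left out (1 without water vehicle replicate 4 or atracurium replicate 2). Among muscle markers 2, *ttn-1* and *unc-22*, passed instead of 0 without atracurium replicates 2 and 4. The same omission reversed the log2 fold changes of *cyp-35A2* (0.11), *cyp-35A3* (0.12) and *cyp-35C1* (0.06). The cause of these changes was not tested, apart from the loss of *cyp-35A1* to the filter. Log2 fold changes ranged from 3.12 to 4.90 for *cyp-35A1*, 10.98 to 12.60 for *cyp-35B2* and 11.23 to 13.27 for *cyp-35B3*, whose fitted values depend on the prior count, and from 4.59 to 4.88 for *cyp-35B1*, 0.62 to 0.86 for *cyp-35A5*, −1.24 to −0.46 for *cyp-35A4* and −0.83 to −0.48 for *cyp-35D1*. Common-median scaling moved the median of all genes by 0.06 on the log2 scale. Few reads limit *cyp-35A1*, *cyp-35A3* and *cyp-35A4*, with at most 69 per sample, and the water vehicle levels of *cyp-35B2* and *cyp-35B3*, with at most 1.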
